A study of Mus musculus with 6 samples.

Results

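The subunits of protein phosphatase 2A (PP2A) were followed in 6 mouse neurosphere cultures, 3 in which miR-335, a microRNA, was blocked by antisense (anti-miR-335) and 3 that received a nonsense control. The genes were taken by symbol, 10 in all. At least 1 array probe was assigned to the symbol alone for 9 of them, of 18069 genes with such a probe, giving 11 probes of 34967 gene probes. The scaffold gene Ppp2r1a had no such probe, because the probe that carries its symbol also carries that of Ppp2r1b, and no value is given for it. The set was put together because the regulatory subunit gene Ppp2r2b had the second smallest p-value among all probes in this same comparison. The differences between the groups are therefore a description for the members. Counts of member probes past a threshold are printed beside those of all probes and are no independent test.

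Neurospheres are balls of cells that precursors of the nervous system form in suspension. Per the labels, C57BL/6 fetuses at embryonic day 12.5 were the source, and the tissue was dorsal telencephalon. LIF at 0.15 ng/ml and the growth factors EGF and bFGF, each at 20 ng/ml, were in the serum-free medium of both groups. Both oligonucleotides carried 2'-O-methyl bases, and the labels name the control reagent for EGFP and the treatment reagent for miR-335. The treatment is also labelled a knockout of miR-335, although the reagent is antisense and the gene was not removed. Its duration is labelled as 24 without a unit. The labels call the replicates independent but not in what respect, so errors and p-values cover only the spread between these 6 samples.

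PP2A is a major serine/threonine phosphatase, built from a scaffold (A), a catalytic (C) and an exchangeable regulatory (B) subunit. The B subunit sets where the enzyme goes and which proteins it dephosphorylates, and its families compete for the same A and C core. B55 family members act on mitotic and cytoskeletal substrates, and the B55 beta subunit encoded by Ppp2r2b is found mainly in brain and neurons, with a splice form that is sent to mitochondria.

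The microRNA that the antisense reagent addresses is shown by both arms of its hairpin, since the labels do not say which arm was meant. The 5p arm lies at chr6:30741314-30741336 and the 3p arm at chr6:30741354-30741375 of GRCm38.p6, both on the plus strand (RefSeq). Bases 2 to 8, the seed that pairs with targets, are in capitals.
mmu-miR-335-5p: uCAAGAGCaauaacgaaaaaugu
mmu-miR-335-3p: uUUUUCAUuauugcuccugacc
The arms have different seeds. Neither microRNA levels nor seed matches in the PP2A transcripts were analysed here, so no member is called a target.

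CodeLink arrays, read in a single colour, gave the RNA levels, and an intensity of 1 is the median of its array. Control replicate 1 stood apart. Over probes above background on every array, its median absolute log2 difference from the mean of the other controls was 0.24. For the other 5 arrays this was 0.12 to 0.17 within their own group. Its spike-in median was the lowest of the 6, but not far from the next (3.49, against 3.89 to 5.19 elsewhere). Values are therefore also given without control replicate 1. A probe was called above background when it exceeded the array's negative control spots by 3 scaled median absolute deviations, a limit between 0.49 and 0.69. Of the 9 neural precursor markers, 9 were above background on at least 3 arrays. Of the 6 measured dorsal telencephalon markers, 4 were, and Emx1 was not above background on any array.

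Ppp2r2b had the largest difference of the 11 probes. Its intensity was 17.1, 15.5 and 13.5 on the control arrays (replicates 1, 2 and 3) and 29.0, 28.1 and 30.9 on the anti-miR-335 arrays. The groups did not overlap, and the lowest anti-miR-335 array was 1.65 times the highest control. The means were 29.3 ± 1.43 against 15.4 ± 1.79 (SD, n = 3 each), a log2 difference of 0.94 ± 0.11 (SE) or 1.92-fold, with a 95% interval of 1.61 to 2.28. Because the gene was chosen for its small p-value in this comparison, the interval is no independent test of it. Control replicate 1 was the highest of the controls here, and without it the log2 difference was 1.02. The gene has 1 probe on the array, and which of its splice forms the probe reads is not given in the sources used here. In RNA from whole cultures, more cells of a type and more RNA per cell cannot be told apart.

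The scanner output, used for replicate 1 of each group, shows how far this spot stood above its surroundings. Before scaling, the Ppp2r2b spot measured 1040 on the control array and 1898 on the treated one, which is 19.3 and 31.1 times the local background median. Both spots carried the software's good flag. After scaling to the array median, this pair differed by 0.77 on the log2 scale. The control array of the pair is the one that stood apart.

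**Figure D1:**
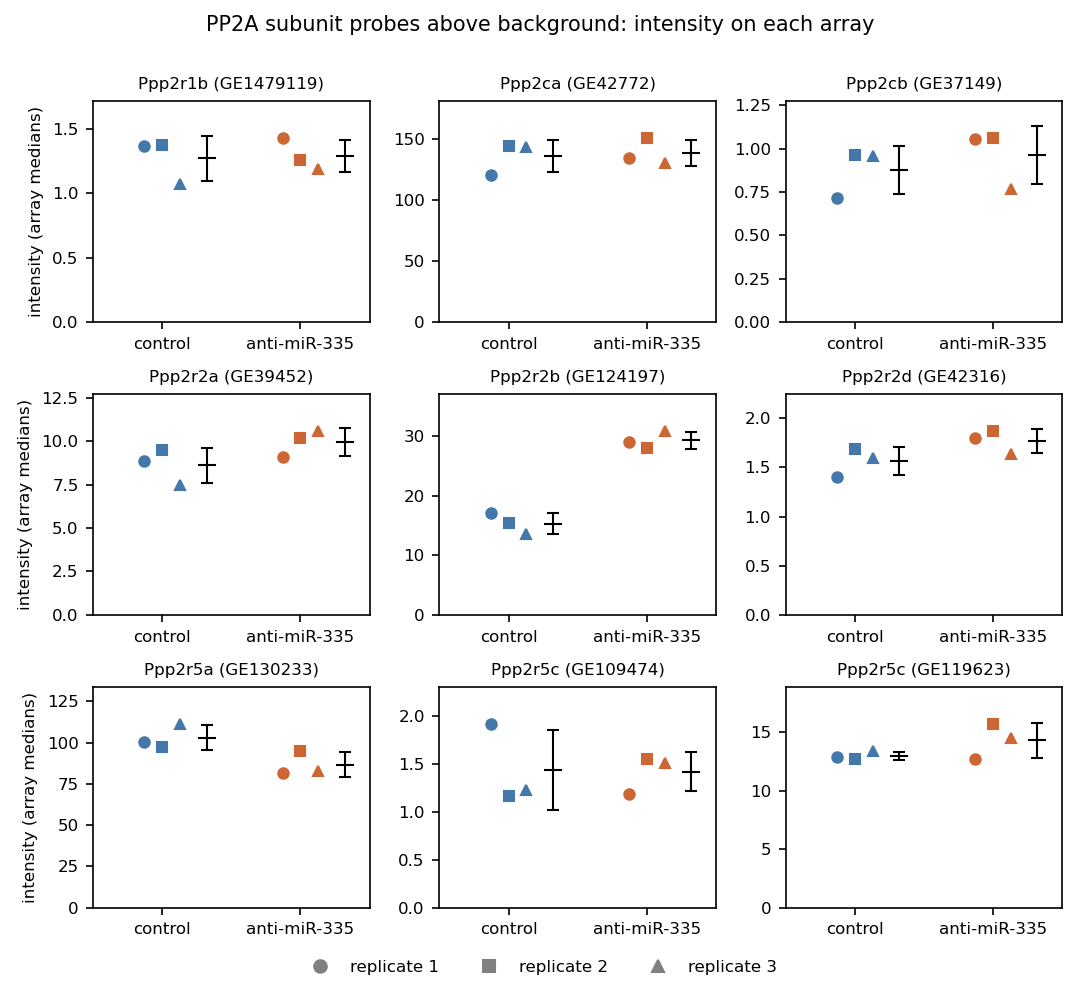
Intensity, in units of the array median, of the 9 PP2A subunit probes above background, on each of the 6 arrays; each panel has its own axis from 0, marker shape gives the replicate, and bars are mean and SD (n = 3). The Ppp2r2b arrays form separate groups at 13.5 to 17.1 and 28.1 to 30.9, while all other panels overlap except the brighter Ppp2r5a probe, which is lower with anti-miR-335.

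The other B55 genes showed smaller differences. Ppp2r2a, the widely expressed B55 alpha subunit, lay at 8.87, 9.46 and 7.47 in the controls and at 9.06, 10.2 and 10.6 with anti-miR-335. Its groups overlapped, as anti-miR-335 replicate 1 lay below control replicate 2. The log2 difference was 0.21 ± 0.12 (SE), or 0.07 to 0.31 when arrays were left out. Ppp2r2d, the B55 delta subunit known for its part in leaving mitosis, lay at 1.41, 1.69 and 1.60 against 1.80, 1.87 and 1.64. These overlapped as well, at 0.18 ± 0.16. The upper ends of the 95% intervals were 1.40-fold for Ppp2r2a and 1.44-fold for Ppp2r2d. Ppp2r2c, the B55 gamma subunit of brain, was not above background on any array, so its log2 difference of 0.55 ± 0.38 has no level behind it. The probe of Ppp2r2cos, the antisense gene at the Ppp2r2c locus, was not above background on any array either.

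The core subunits differed little between the groups. Ppp2ca, the alpha form of the catalytic subunit, lay at 120.3, 143.6 and 142.9 in the controls and at 134.1, 150.4 and 130.0 with anti-miR-335. The groups overlapped over most of their range, and the log2 difference of 0.03 ± 0.13 (SE) has a 95% interval from 0.83-fold to 1.25-fold. Ppp2cb, the beta form of the catalytic subunit, was dim at 0.72, 0.96 and 0.95 against 1.05, 1.06 and 0.77, with a log2 difference of 0.13 ± 0.23. Without control replicate 1 the differences were -0.06 for Ppp2ca and -0.01 for Ppp2cb, the opposite sign. Ppp2r1b, the beta form of the scaffold, lay at 1.37, 1.37 and 1.07 against 1.43, 1.26 and 1.19, a difference of 0.03 ± 0.19. Neither of these dim probes separated the groups, and their intervals reach 1.56-fold and 1.36-fold.

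Of the B56 family, a separate class of B subunits, Ppp2r5a and Ppp2r5c differed in sign, with 95% intervals that all spanned both directions. Other B56 genes are given with the other regulatory subunits below. Ppp2r5a, the B56 alpha subunit, lay at 100.2, 97.4 and 111.4 in the controls and at 81.5, 95.1 and 82.9 with anti-miR-335 on its bright probe, GE130233. Every anti-miR-335 array was below every control, although replicate 2 came close, at 95.1 against 97.4. The log2 difference was -0.25 ± 0.12 (SE), with a 95% interval of -0.52 to 0.02, and -0.27 without control replicate 1. A second Ppp2r5a probe, GE111309, was above background on 1 array only.

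Ppp2r5c, the B56 gamma subunit linked to p53, has a pair of probes above background. On the brighter probe, GE119623, the controls were close together at 12.9, 12.7 and 13.4, and the anti-miR-335 arrays lay at 12.8, 15.7 and 14.5. Anti-miR-335 replicate 1 fell among the controls and the other two lay above them, for a log2 difference of 0.14 ± 0.11 (SE). The dimmer probe, GE109474, lay at 1.92, 1.17 and 1.23 against 1.19, 1.56 and 1.52. There control replicate 1 was the highest array of the 6, and the difference of 0.01 ± 0.23 became 0.23 without it.

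Counted together, 9 of the 11 member probes were above background, all 9 of them on every array. Of these, 1 did not overlap upward (Ppp2r2b) and 1 downward (the bright Ppp2r5a probe), where 9.7% of all 17843 probes above background on every array lay apart upward and 8.46% downward. By limma with Benjamini-Hochberg adjustment over 34847 probes, 0 of the 11 passed an adjusted p of 0.05, and 0% of all probes did. At an unadjusted p under 0.05 it was 1 of 11, Ppp2r2b (adjusted p = 0.109 by limma), with 9.07% of all probes. Without control replicate 1, Ppp2r2b alone of the 11 passed, with 3.17% of all probes called, 2.27% higher and 0.906% lower. Ppp2r2b was chosen on this contrast, so these counts support nothing about it. Leaving Ppp2r2b out, the other 8 probes above background ran from -0.25 to 0.21 in log2 difference, with a median of 0.08. Over all 21956 probes above background on at least 3 arrays the median was 0.03, and 0.424% of them had a difference as high as that of Ppp2r2b.

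**Figure D2:**
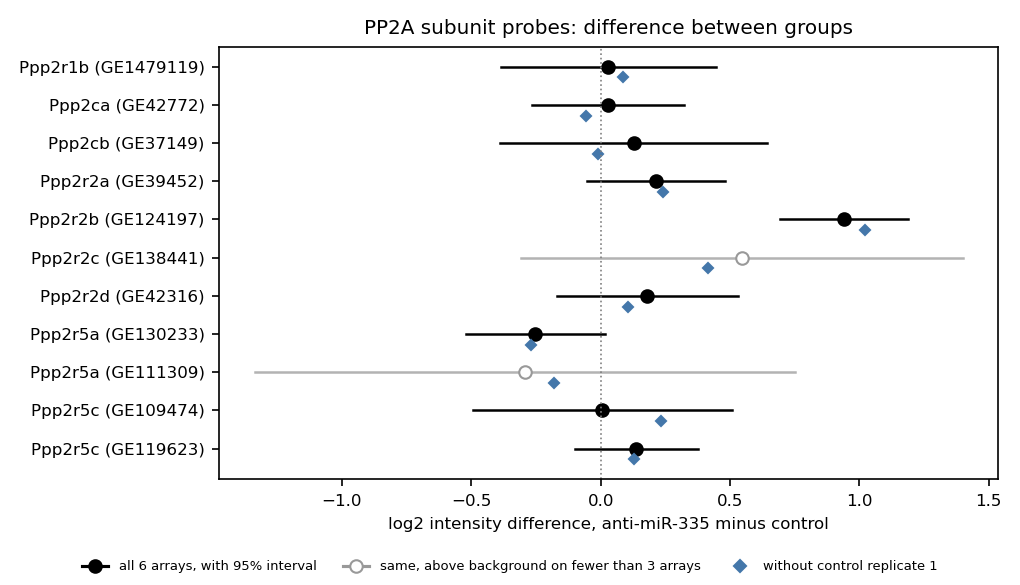
Log2 intensity difference, anti-miR-335 minus control, for each of the 11 PP2A subunit probes with its 95% interval over all 6 arrays (circles; open and grey where the probe was above background on fewer than 3 arrays) and without control replicate 1 (diamonds). Ppp2r2b stands at 0.94, and the other filled circles lie between -0.25 and 0.21.

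Genes that act on or beside PP2A were taken as 6 further lists of 58 genes, of which 52 were measured and 46 were above background on at least 3 arrays. By limma, 0 of the 52 rose and 0 fell at an adjusted p of 0.05, with 4 at an unadjusted p under 0.05, where 9.94% of all genes were by their brightest probe. Positive differences were found for 39 of the 52, with a median log2 difference of 0.12. Over the brightest probe of all 18010 genes, 57.4% were positive and the median was 0.05. Among the 12477 genes above background on at least 3 arrays, as most of the 52 were, 62.5% were positive and the median was 0.07. Group values lay apart upward for 5 of the 52 and downward for 1, beside 9.35% and 6.22% of all genes with values on every array.

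The inhibitors of PP2A held the smallest p-values of these lists. Ensa, the endosulfine that blocks PP2A with a B55 subunit once it is phosphorylated, lay at 8.13, 9.18 and 8.37 in the controls and at 12.4, 13.8 and 12.0 with anti-miR-335. The groups were well separated, control replicate 1 lay with the other controls, and the log2 difference of 0.57 ± 0.10 (SE) had an adjusted p of 0.342 by limma. Without control replicate 1 the difference was 0.53 and the adjusted p 0.0264. Anp32a, an acidic nuclear protein first known as a PP2A inhibitor, lay at 15.3, 16.0 and 15.3 against 18.7, 24.2 and 19.9. These did not overlap either, at 0.42 ± 0.12 (adjusted p = 0.414; 0.0849 without control replicate 1). The rest of the list is given so that all measured inhibitors are shown, and was named after its values were seen. Set, an inhibitor of the same kind, differed by 0.01 ± 0.13, and Bod1, an inhibitor at the kinetochore, by -0.25 ± 0.16. Cip2a, which protects Myc from PP2A, differed by 0.01 ± 0.21, while Anp32e and Mastl, the kinase that phosphorylates Ensa, were not above background on any array. Of the 7 inhibitor genes measured, 0 passed and the median was 0.01.

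The other regulatory subunits numbered 9, all measured and above background, and 8 of them had positive differences (median 0.14). Ppp2r5d, the B56 delta subunit expressed in neurons, lay at 11.3, 8.55 and 8.45 in the controls and at 10.4, 13.2 and 12.6 with anti-miR-335. Control replicate 1 lay above anti-miR-335 replicate 1, and the log2 difference was 0.36 ± 0.14 (SE; adjusted p = 0.510 by limma). Strn3, a striatin and so a scaffold for kinases that PP2A holds in check, lay at 18.6, 11.1 and 10.02 against 15.9, 15.0 and 17.0. Here control replicate 1 was above all anti-miR-335 arrays, and the difference of 0.32 ± 0.20 (adjusted p = 0.664) was 0.59 without it and 0.15 without control replicate 3. For 4 of these genes a dimmer second probe had the opposite sign. That of Ppp2r5d was not above background on any array (-0.56 ± 0.42). That of Ppp2r5e, the B56 epsilon subunit, was above it on 4 arrays, 3 of them controls (-0.86 ± 0.30, beside 0.14 ± 0.11 on the brighter). On this dimmer probe the groups lay apart, at 0.67 to 0.82 in the controls and 0.30 to 0.56 with anti-miR-335. That of Ppp2r3d had no value on either replicate 1 array (-0.84 ± 0.20, beside 0.02 ± 0.12). It was called lower in the fit without control replicate 1 (adjusted p = 0.0397 by limma, against 0.41 over all arrays). Its own values and difference were the same in both fits. Strn, another striatin, gave -0.05 ± 0.17 beside 0.09 ± 0.15.

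Genes for assembly and methylation of PP2A all lay close to 0, with 5 of 5 measured, 0 passed and a range of log2 differences from -0.01 to 0.14. Ptpa, the activator that folds the catalytic subunit, lay at 37.0, 39.1 and 38.7 against 37.4, 45.2 and 42.4 (adjusted p = 0.780 by limma). Its groups overlapped, as anti-miR-335 replicate 1 lay below control replicates 2 and 3. A second Ptpa probe was not above background on any array. Lcmt1, which methylates the catalytic subunit's tail, lay at 6.33, 6.62 and 6.69 against 7.58, 7.01 and 7.10. Its groups did not overlap, but the difference was only 0.14 ± 0.10 (adjusted p = 0.701).

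Partners of the striatins in the STRIPAK complex, of which PP2A is a part, were measured for 10 of 11 genes, with 0 passed and a median of 0.12. Cttnbp2nl, a cortactin-binding protein of the complex, lay at 2.70, 2.13 and 1.98 against 2.79, 2.93 and 2.92. The groups were apart, narrowly at control replicate 1, at 0.36 ± 0.15 (adjusted p = 0.528 by limma). Stk25, a kinase of the complex, lay at 24.5, 19.3 and 16.1 against 24.0, 25.2 and 23.0, so that control replicate 1 lay within the anti-miR-335 range (0.29 ± 0.14; adjusted p = 0.588). The difference was 0.45 without control replicate 1 and 0.15 without control replicate 3.

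Without control replicate 1, 7 of the 52 genes (13.5%) rose by limma and 0 fell, where 3.49% of all genes rose by their brightest probe. Among genes above background on at least 3 arrays, 5.02% rose and 0.889% fell. The 7 were Ppp2r5d, Strn3, Ensa, Stk25, Ppp4r2, Ppp1cb and Cttnbp2, the last named only after its value was seen. A second Cttnbp2 probe had a difference of -0.23 over all arrays. In 6 of the 7 control replicate 1 lay above the lowest anti-miR-335 array, and in 3 (Strn3, Ppp1cb and Cttnbp2) above all of them. Ensa was the exception. For the other 6, the call therefore rests on leaving out a control that lay inside or above the treated range.

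**Figure D3:**
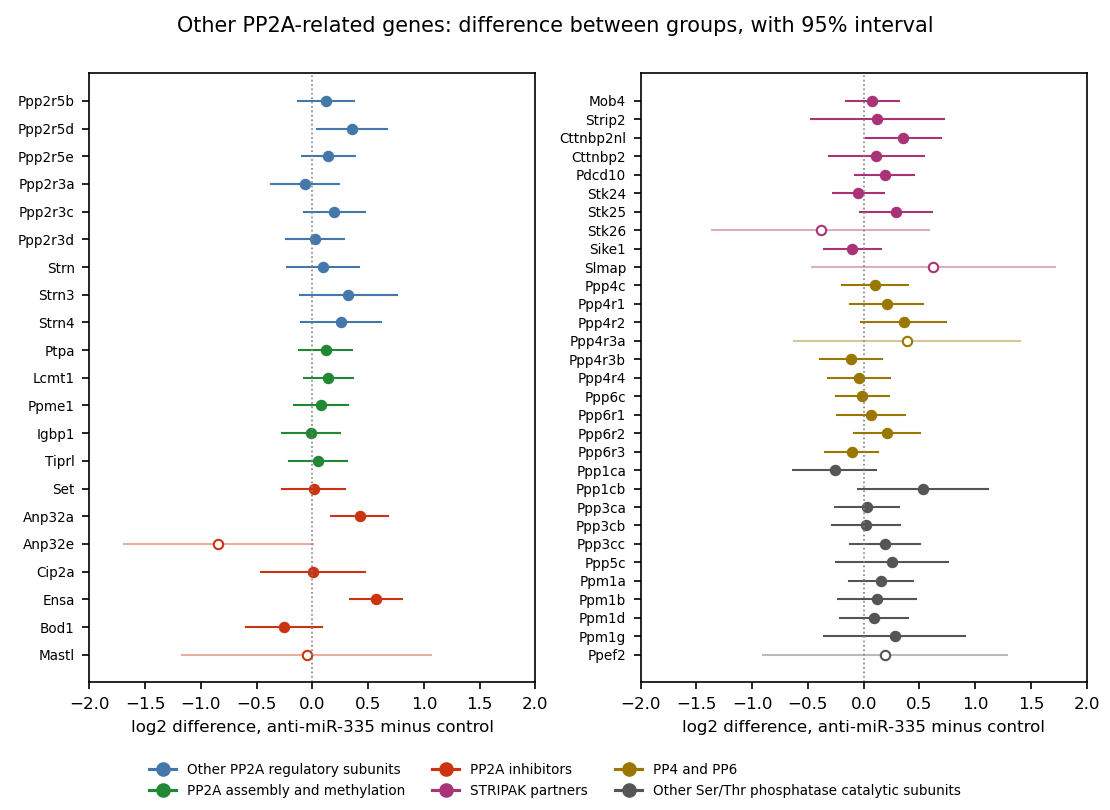
Log2 intensity difference, anti-miR-335 minus control, with its 95% interval for the 52 other PP2A-related genes, by the brightest probe of each and coloured by list; open circles were above background on fewer than 3 arrays. Ensa (0.57) and Anp32a (0.42) have intervals above 0, and so do Ppp2r5d (0.36) and Cttnbp2nl (0.36); after adjustment 0 of the 52 passed.

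Markers of cell types are given beside Ppp2r2b because the gene is known from neurons and the cultures can hold several cell types. By limma over all arrays, 0 of the 48 distinct markers measured passed. Without control replicate 1, 7 rose and 1 fell (16.7%): Dcx, Pax6, Hes5, Aqp4, Slc1a3, Gja1 and Pdgfra rose and Trem2 fell. For Pax6 control replicate 1 lay above all anti-miR-335 arrays (18.4 against 14.6 to 16.7), and so it did for Slc1a3 (66.5 against 58.0 to 61.7). The calls of Pax6 and Slc1a3 therefore rest on leaving out a control above the treated range. Among all genes above background on at least 3 arrays, 5.02% rose and 0.889% fell by their brightest probe. Over all probes, dim ones included, 3.17% were called. Markers shown by value below were named after their values were seen, most of them for groups that did not overlap. Group values lay apart upward for 1 neuron, 2 neural precursor, 1 dorsal telencephalon, 2 astrocyte, 2 oligodendrocyte lineage, 1 microglial and 1 endothelial marker. The dorsal telencephalon marker, Neurog2, and the endothelial one, Tek, were dim. Both were above background on 0 control arrays, and on 2 and 3 anti-miR-335 arrays respectively. Downward, group values lay apart for Trem2 and for Ptprc, Pecam1 and Flt1, which were dim as well. Of all genes with values on every array, 9.35% lay apart upward and 6.22% downward.

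Of 10 measured neuron markers, 6 were above background on at least 3 arrays, and Stmn2, Nefl and Nefm were not above background on any. The summed intensity of the list was 15.6, 11.6 and 12.4 in the controls and 14.4, 18.5 and 18.7 with anti-miR-335, so the groups overlapped at replicate 1. Of the 6 above background, 5 had positive differences, where 62.5% of all such genes did. Dcx, doublecortin of young neurons, lay at 2.56, 2.44 and 2.27 against 3.64, 5.53 and 5.81 without overlap. The groups overlapped for the other 9 neuron markers, and Syt1, a synaptic vesicle gene above background, differed by -0.11.

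Astrocyte markers, 7 of 7 above background, summed to 161 to 200.7 in the controls and 184 to 207 with anti-miR-335. Within the list, Aqp4, a water channel, lay at 11.5, 10.04 and 9.85 against 15.0, 17.9 and 17.9. Gja1, a gap junction gene, lay at 6.27, 7.17 and 4.37 against 15.3, 15.8 and 8.49. Both sets lay apart, while the groups overlapped for the other 5. Oligodendrocyte lineage markers, 6 of 6 above background, summed to 18.4 to 42.6 and 25.8 to 53.0. Olig1 alone ranged from 1.61 to 26.8 over the arrays and set most of this spread. Pdgfra, a growth factor receptor of oligodendrocyte precursors, lay at 9.64, 7.01 and 7.21 against 13.2, 17.6 and 17.0. Sox10 lay at 2.31, 2.44 and 2.89 against 3.13, 3.34 and 3.40. Both were apart, and the other 4 of this list overlapped with negative differences.

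Neural precursor markers summed to 246 to 249 in the controls and 263 to 295 with anti-miR-335. This separation was carried by Fabp7, a lipid-binding protein of radial glia and the brightest of the list. Without it the sums were 147, 163 and 161 against 157, 186 and 155, which overlapped. Hes5, a Notch target, lay at 2.10, 2.89 and 2.82 against 4.52, 4.41 and 4.39. Nes, Emx2 and Msi1 had negative differences. Microglial markers summed to 6.52 to 7.06 and 5.54 to 5.82, with 2 of 6 above background and Ptprc, Itgam and Tyrobp at none. The 2 differed in opposite directions, both without overlap. Trem2 lay at 4.64, 4.85 and 5.08 against 3.42, 3.19 and 3.21, and Cx3cr1 at 0.58, 0.81 and 0.78 against 0.90, 0.98 and 1.40. Trem2 made up most of the summed intensity and carried its fall. The rest of the microglial list, summed together, was not lower with anti-miR-335. Endothelial markers summed to 2.66 to 3.53 and 1.86 to 3.29, with 3 of 6 above background and Pecam1, Cdh5 and Flt1 at none. Of the 3, Tek was above background on anti-miR-335 arrays only. The part of these markers in the Ppp2r2b difference was not tested.

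Among 12134 other single-symbol probes above background on all 6 arrays, the 5 whose profile was most like that of Ppp2r2b were found by the root mean square difference between log2 profiles, each centred on its own mean. They were Prkcq, a protein kinase C gene (0.10), Vcam1, an adhesion molecule gene (0.12), Plekha6, a pleckstrin homology protein gene (0.12), Celsr3, a seven-pass cadherin gene of axon tracts (0.12), and Pcdhb2, a clustered protocadherin gene (0.13). The median over all probes searched was 0.47. The nearest member was Ppp2r2a at 0.37, which ranked 1821. The choice of the 5 depended on single arrays: leaving out control replicate 1 kept 1 of them among the nearest 5, leaving out anti-miR-335 replicate 1 also kept 1, and leaving out any other single array kept 2 to 5.

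**Figure D4:**
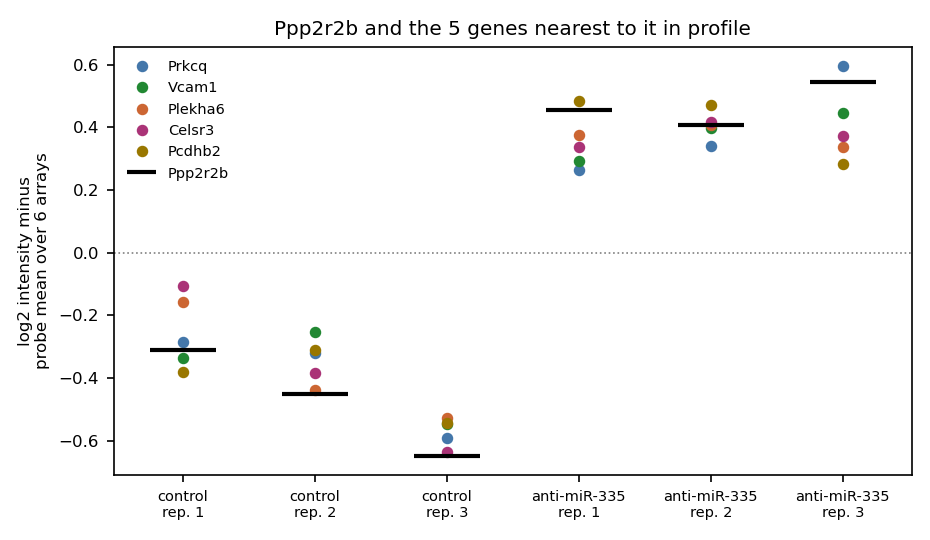
Log2 intensity of each probe minus its own mean over the 6 arrays, for Ppp2r2b (bars) and the 5 genes with the smallest root mean square difference from it (points). All 6 genes lie below 0 on the 3 control arrays and above 0 on the 3 anti-miR-335 arrays, which is what chose them.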

How the data were processed

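The deposited values are linear intensities that the authors divided by each array's median, per the labels, from CodeLink Expression Analysis 4.1.0.29054, per the file headers. On the 2 arrays with scanner output, all 35976 and 36032 values in both sources were equal within 0.0001. There, the raw intensity deposited by the authors is the spot mean minus the local background median, read from the values. Genes came from the platform annotation, with symbols looked up in RefSeq's GRCm38.p6 table (21615 single-symbol probes, 0 symbols changed).

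A floor of 0.163, the 5th percentile of positive intensities, was set before taking log2. The comparison used lmFit and eBayes (intensity trend, no covariate, two-sided) of limma 3.58.1, run in R 4.3.3, on 34847 probes, each with 2 or more values in both groups; intervals are 95%. The script was tested on simulated data. A gene of several probes is represented by the brightest. Each further list names genes that passed, otherwise the 2 of smallest p. The members and lists were chosen with earlier results of these data known. With 3 arrays a group, the number of arrays limits the precision. The alternatives were quantile normalization, other floors, dim probes left out, no or robust trend, array weights, a replicate block, good flags only, the mean of all probes of a gene, scanner intensities, and leaving out arrays or same-numbered pairs. Slide and scan batches were not tested: headers were read for 1 array a group.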

Additional observations from a re-analysis of the deposited data

How the results depend on the processing

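The log2 difference of Ppp2r2b stayed between 0.77 and 1.03 over all alternatives, but its adjusted p by limma did not stay alike. From 0.109 in the main fit, it was 0.00421 without control replicate 1 and 0.0279 with a robust trend. With the replicate block it was 0.753, without anti-miR-335 replicate 3 it was 0.859, and without the replicate 2 pair 0.997. Of the other 10 member probes, 6 changed sign under at least 1 alternative and 0 passed under any. Of the 12 other PP2A-related genes taken as the 2 of smallest p in each list, 0 changed sign, and 7 passed under at least 1 alternative. Of the genes named beside them, without control replicate 1 Cttnbp2 passed (adjusted p = 0.0465 by limma) and the brighter Ppp2r3d probe went from 0.02 to -0.02. The count of all probes called, 0, was 474 with array weights, 3 with a robust trend, 1 under quantile normalization and 0 to 1571 over the cases that leave out arrays (1100 without control replicate 1, 1571 without the replicate 1 pair, 1 without anti-miR-335 replicate 1). The count of member probes, 0, was 1 with a robust trend, 1 with array weights and 0 to 1 over the leave-out cases. That of other PP2A-related genes, 0, was 1 with array weights (Ensa) and 0 to 7 over the leave-out cases, with 7 also without the replicate 1 pair. The cause was not tested. Other settings left these counts at 0, the replicate block among them, with 0 probes called and Ppp2r2b at 0.94 ± 0.14 (SE). Same-numbered arrays correlated in their deviations at -0.23, 0.04 and -0.26, and 0 of 6 arrays correlated best with their own number, so the numbers were not taken as pairs. Of the 5 genes nearest to Ppp2r2b, 3 were kept after quantile normalization. Probes near background, such as Ppp2cb and Ppp2r2c, are limited by their signal.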

Other observations

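Phosphatases related to PP2A were looked at beside it. PP4 and PP6, whose catalytic subunits resemble that of PP2A, were measured for 10 of 10 genes with 0 passed by limma and a median log2 difference of 0.08. Ppp4r2, a regulatory subunit of PP4, lay at 16.6, 11.9 and 9.85 in the controls and at 14.3, 16.8 and 17.2 with anti-miR-335 (0.36 ± 0.17 SE; adjusted p = 0.576). Ppp6r2, a regulatory subunit of PP6, lay at 36.4, 26.8 and 28.4 against 31.4, 37.4 and 36.5 (0.21 ± 0.13; adjusted p = 0.675), while a dimmer probe gave -0.25 ± 0.18. In both genes control replicate 1 lay within the anti-miR-335 range. Without control replicates 1 and 3 in turn, Ppp4r2 differed by 0.56 and 0.19, and without control replicates 1 and 2 in turn Ppp6r2 differed by 0.34 and 0.12.

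The catalytic subunits of PP1, calcineurin, PP5, the PP2C family and the Ppef genes were measured for 11 of 13 genes. Of these, 0 passed and the median was 0.15. Ppp1cb, the beta form of PP1, lay at 18.9, 12.7 and 7.35 against 17.1, 16.8 and 18.5 (0.53 ± 0.26; adjusted p = 0.590 by limma), its control arrays spanning more than the treated ones. Its difference was 0.85 without control replicate 1 and 0.17 without control replicate 3. Ppp1ca, the alpha form, lay at 114.5, 131 and 165 against 112.6, 131 and 97.0 (-0.26 ± 0.17; adjusted p = 0.676), or -0.12 without control replicate 3.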
